A study of Homo sapiens with 9 samples.

Results

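The SR proteins and heterogeneous nuclear ribonucleoproteins (hnRNPs) were followed here as the protein-coding genes whose symbol is SRSF followed by a digit or starts with HNRNP. These are 39 genes, 12 SRSF and 27 HNRNP, of the 58425 genes to which the transcripts of the files could be matched. The RNA came from nuclei of the osteosarcoma line U2OS, collected 48 hours after the cells had received 15 nM siRNA. The siRNA was a control (siControl), targeted dyskerin, the pseudouridine synthase of the H/ACA complex (siDyskerin), or targeted GAR1, another core protein of that complex (siGAR1), with 3 replicates per group and 9 libraries in all. RNAiMAX was the reagent throughout, and the control siRNA had another supplier than the targeting ones, so that supplier and knockdown cannot be told apart. The labels do not say whether the replicates were separate cultures, and the p-values measure only the spread between these libraries.

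SR proteins carry RNA recognition motifs and a domain rich in arginine and serine, bind exonic sequences and recruit the spliceosome to nearby splice sites. The hnRNPs coat nascent transcripts and often keep exons from being included, and both families also act in RNA export, stability and translation. Several members limit their own mRNA by including a poison exon, an exon with an early stop codon that sends the transcript to nonsense-mediated decay, or by retaining an intron. Their decay and retained-intron transcripts are therefore a common readout of how these genes are controlled.

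The total of estimated reads per library was 48838756 to 90698675, and the targeted genes followed the labels. DKC1, which encodes dyskerin, had 20777 to 22716 normalised reads in siControl and 3075 to 3124 in siDyskerin. GAR1 had 594 to 664 in siControl and 83.9 to 115 in siGAR1. In the other knockdown DKC1 and GAR1 had log2 fold changes of 0.19 and 0.21 against siControl (edgeR adjusted p = 0.080 and 0.22). Normalised reads are estimated reads per gene or transcript scaled to the mean library. In 12 pairs of nested transcripts from 7 of these genes the shorter never had more reads than the longer in any library, as where a read is counted in every transcript that it fits. In every library 99.998% or more of the transcripts had a whole number of reads. How shared reads were counted is not stated by the labels. If they count in each transcript, the sum of a gene grows with its number of annotated transcripts. Of the markers fixed for an osteosarcoma line, RUNX2, SPP1, COL1A1, ALPL, VIM and SPARC were detected and COL1A2 and SP7 were near 0. SPP1 had 502 to 672 normalised reads in siControl, 1564 to 1838 in siDyskerin and 695 to 764 in siGAR1, a log2 fold change of 1.52 after dyskerin knockdown (edgeR adjusted p = 1.4e-06). Of the epithelial and blood markers, KRT19 and HBB were near 0, and EPCAM, CDH1 and PTPRC had means of 105, 206 and 11.8 normalised reads in siControl. KRT18 had 16886 to 19616 in siControl, 25956 to 28856 in siDyskerin and 22145 to 34187 in siGAR1, the highest in siGAR1 replicate 3. The part of SPP1 and KRT18 in the results was not tested. RNA was measured in bulk, so that fewer cells and less RNA per cell cannot be told apart.

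The exons that give some decay transcripts their own stop codon are shown here. In GENCODE 44 on hg38, 16 internal exons of decay transcripts of these genes lay outside every protein-coding exon of the gene and held the stop codon of the transcript. For 8 of them the sequence is given from the first base of the exon to the stop codon, which is in capitals, because these exons set the decay transcripts of the results apart from the coding ones.
SRSF3-203, chr6:36599821-36599854, plus strand: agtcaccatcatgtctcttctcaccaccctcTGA
SRSF4-205, chr1:29166009-29166064, minus strand: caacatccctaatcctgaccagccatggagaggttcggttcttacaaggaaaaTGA
SRSF6-202, chr20:43459153-43459304, plus strand: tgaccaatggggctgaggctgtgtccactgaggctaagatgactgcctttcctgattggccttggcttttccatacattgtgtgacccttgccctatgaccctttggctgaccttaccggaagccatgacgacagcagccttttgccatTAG
SRSF7-204, chr2:38749319-38749346, minus strand: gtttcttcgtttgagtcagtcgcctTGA
SRSF11-213, chr1:70231095-70231117, plus strand: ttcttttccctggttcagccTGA
HNRNPH1-211, chr5:179621951-179621976, minus strand: cgttggtaacggaaagcgacctgTAA
HNRNPL-202, chr19:38841624-38841682, minus strand: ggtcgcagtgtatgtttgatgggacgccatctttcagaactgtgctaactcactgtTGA
HNRNPU-228, chr1:244848809-244848856, minus strand: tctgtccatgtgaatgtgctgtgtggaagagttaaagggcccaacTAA

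The stops shown are TGA in SRSF3-203, SRSF4-205, SRSF7-204, SRSF11-213 and HNRNPL-202, TAG in SRSF6-202, and TAA in HNRNPH1-211 and HNRNPU-228. The whole exons run from 69 bases in HNRNPU-228 to 456 bases in SRSF3-203. The transcript HNRNPR-211, annotated as a retained intron, is shown for the gene that changed after dyskerin knockdown. Of its 612 bases, 220 lie outside the coding exons of HNRNPR, and they begin at the GT of a 5′ splice site, in capitals.
HNRNPR-211, chr1:23338270-23338489, minus strand: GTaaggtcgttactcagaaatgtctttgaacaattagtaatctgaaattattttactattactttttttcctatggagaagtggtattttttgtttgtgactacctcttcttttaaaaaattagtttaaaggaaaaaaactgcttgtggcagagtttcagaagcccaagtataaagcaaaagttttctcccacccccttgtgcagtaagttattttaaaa

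Of the 39 genes, 34 had enough reads to be tested, 11 SRSF and 23 HNRNP. The other 5, SRSF12 and the HNRNPC-like genes HNRNPCL1, HNRNPCL2, HNRNPCL3 and HNRNPCL4, had a mean of at most 2.05 normalised reads in any group. Levels were compared between genes per transcript length, as the TPM of the canonical transcript. In siControl the highest were SRSF1 with 88.6 ± 1.39 TPM (SD, n = 3), HNRNPA2B1 with 73.2 ± 4.23, HNRNPC with 70.5 ± 3.54, SRSF2 with 67.7 ± 2.68 and HNRNPAB with 65.2 ± 1.56. SRSF1 stood above the others by more than the SD, while HNRNPA2B1, HNRNPC and SRSF2 were within about the SD of their neighbours. The median over the 33 tested genes with a listed canonical transcript was 21.98 TPM, and the lowest were HNRNPA1L3 with 0.367 and HNRNPA1L2 with 0.419, both related to HNRNPA1.

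After dyskerin knockdown, 1 of the 34 genes passed the test (edgeR quasi-likelihood, adjusted p under 0.01), HNRNPR, which was higher. Over all 18444 genes tested, 3.08% were higher and 3.32% lower at this threshold. The median log2 fold change of the 34 genes was -0.003, with 17 above 0, and that of all genes was 0.003. No member changed by more than 1 on the log2 scale, and the 95% intervals of all 34 lay between -0.62 and 0.96. At an unadjusted p under 0.05 there were 8 members of 34, where 26.1% of all genes reached it, so that this count is near the background.

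HNRNPR (ENSG00000125944.21, chr1:23303771-23344336, minus strand) encodes hnRNP R, an RNA-binding protein related to SYNCRIP. It had 39380, 42782 and 41881 normalised reads in siControl, 48764, 50396 and 48659 in siDyskerin, and 46569, 47390 and 44789 in siGAR1. All siDyskerin libraries were above all siGAR1 libraries, which were above all siControl libraries. Against siControl the log2 fold change was 0.25 in siDyskerin (standard error 0.05, edgeR adjusted p = 0.0066) and 0.16 in siGAR1 (adjusted p = 0.082), and the difference between the knockdowns was 0.09 (adjusted p = 0.32). The call was lost when any library other than siGAR1 replicate 3 was left out (adjusted p = 0.013 to 0.046) and with the largest transcript alone (adjusted p = 0.022), while the fold change stayed between 0.21 and 0.27.

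The genes nearest to the threshold on the lower side were HNRNPAB and HNRNPL, an hnRNP of the A/B group and a reader of CA-rich RNA. HNRNPAB had 45199 to 47975 normalised reads in siControl and 38368 to 41028 in siDyskerin, with a log2 fold change of -0.23 (edgeR adjusted p = 0.016). HNRNPL had 25762 to 26971 in siControl and 22555 to 22983 in siDyskerin, with a log2 fold change of -0.21 (adjusted p = 0.041). In both genes all siDyskerin libraries were below all siControl libraries, but the adjusted p was above 0.01. HNRNPAB passed with DESeq2 (adjusted p = 0.0020).

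**Figure D1:**
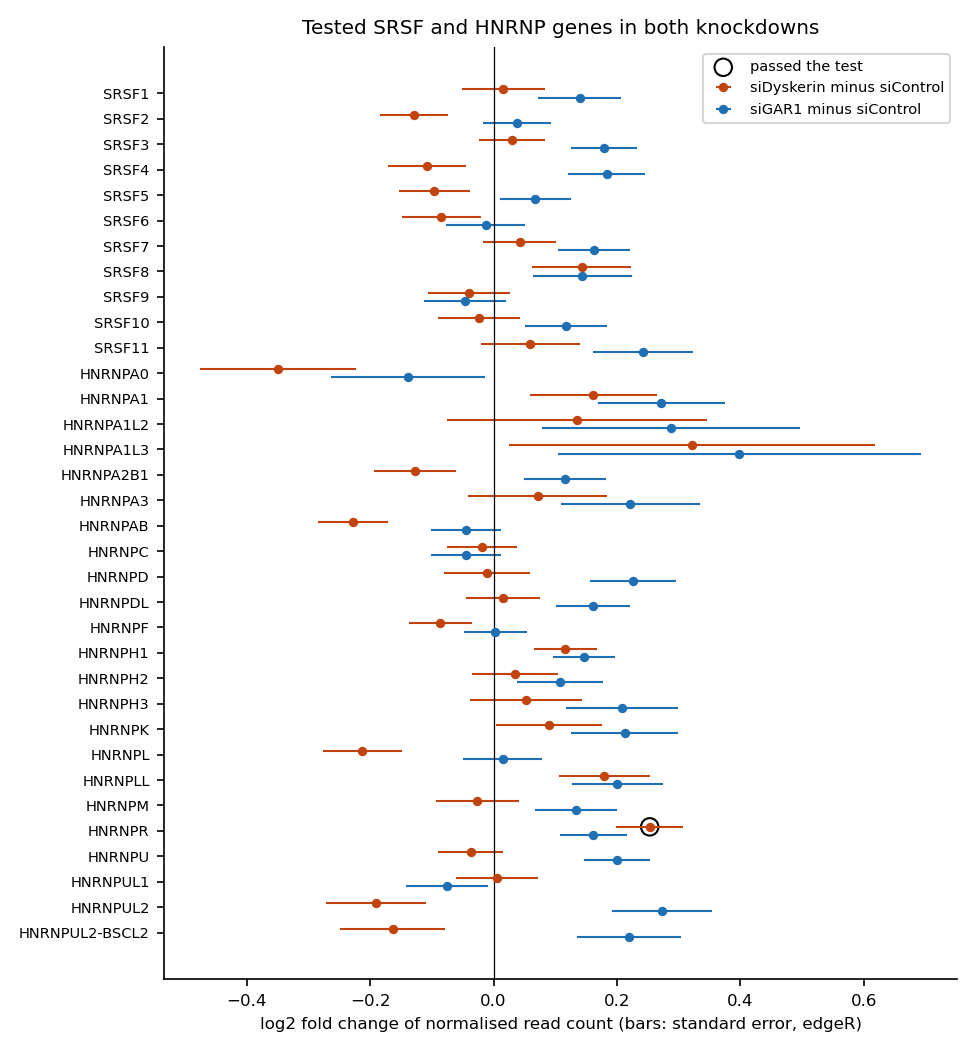
Log2 fold change (x axis) of the 34 tested SRSF and HNRNP genes (y axis) after dyskerin knockdown (orange) and GAR1 knockdown (blue). Bars are standard errors derived from the edgeR F statistic, and a ring marks the gene that passed. HNRNPR is ringed at 0.25 after dyskerin knockdown, and 28 of the 34 blue points lie right of 0.

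After GAR1 knockdown 0 of 34 genes passed with edgeR and 0 with DESeq2, against 1.63% of all genes higher and 1.79% lower, and 15 members had an unadjusted p under 0.05, which 24% of all genes reached. The fold changes leaned to one side. Of the 34 genes, 28 had a log2 fold change above 0, with a median of 0.15 and a range of -0.14 to 0.40, where 51.3% of all genes were above 0 and their median was 0.009. The SRSF genes had a median of 0.14, with 9 of 11 above 0, and the HNRNP genes had 0.16, with 19 of 23 above 0. In 15 of the 34 genes all siGAR1 libraries were above all siControl libraries, as in 13.6% of all genes tested, and in 0 all were below, as in 14.1% of all genes.

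The same was seen library by library. The median of the 34 genes, as log2 of the normalised reads over the siControl mean, was -0.006, 0.02 and -0.02 in the siControl libraries, -0.01, 0.04 and -0.06 in siDyskerin, and 0.15, 0.10 and 0.13 in siGAR1. The siGAR1 libraries were above all others, and the medians of all genes lay between -0.005 and 0.01 in every library. No test was run on this median, because the genes were chosen with results known and are not replicates.

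**Figure D2:**
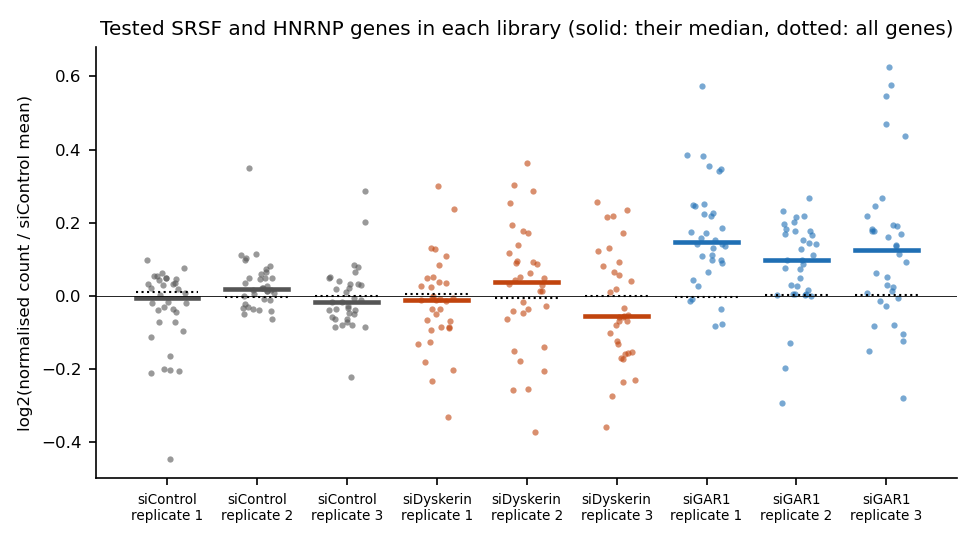
Log2 of normalised reads over the siControl mean (y axis) for the 34 tested genes (points) in each of the 9 libraries (x axis), with their median (solid line) and that of all genes (dotted line). The solid lines of siGAR1 sit at 0.10 to 0.15 and those of the other libraries at -0.06 to 0.04.

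Among the SR proteins chosen to be shown in every library, SRSF1, which binds purine-rich exonic enhancers, had 48223, 48603 and 47512 normalised reads in siControl, 49783, 49114 and 47013 in siDyskerin and 57237, 54558 and 47192 in siGAR1. Its siGAR1 libraries overlapped with siControl through replicate 3, and its log2 fold changes were 0.02 and 0.14 (edgeR adjusted p = 0.92 and 0.22). SRSF2, a core protein of nuclear speckles, had 33205, 32112 and 31057 in siControl, 30664, 28911 and 28519 in siDyskerin and 32733, 33815 and 32398 in siGAR1. All siDyskerin libraries of SRSF2 were below the others, with a log2 fold change of -0.13 against siControl that did not pass (adjusted p = 0.15). SRSF3, the smallest SR protein, had 31187, 31097 and 30102 in siControl, 30583, 32690 and 31010 in siDyskerin and 34998, 35755 and 33856 in siGAR1. All siGAR1 libraries of SRSF3 were above the others, with a log2 fold change of 0.18 that did not pass (adjusted p = 0.053).

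Among the hnRNPs shown in the same way, HNRNPA1, a repressor of exon inclusion, had 13891, 13572 and 12668 in siControl, 13873, 15952 and 15072 in siDyskerin and 14313, 14609 and 19549 in siGAR1. HNRNPK, which binds C-rich RNA, had 57375, 56256 and 53246 in siControl, 57073, 62614 and 57900 in siDyskerin and 61394, 56682 and 75300 in siGAR1. For both, siGAR1 replicate 3 was the highest of the 9 libraries. The log2 fold changes after GAR1 knockdown were 0.27 for HNRNPA1 and 0.21 for HNRNPK (edgeR adjusted p = 0.12 and 0.15), and without that library the difference between the knockdowns changed sign in both. HNRNPC, which binds uridine tracts, had 131931, 129009 and 120231 in siControl, 123925, 130988 and 121211 in siDyskerin and 123812, 127597 and 118150 in siGAR1. Its groups overlapped, and its log2 fold changes were -0.02 and -0.04 (adjusted p = 0.88 and 0.68).

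Set directly against each other, the knockdowns differed in 4 of the 34 genes, HNRNPUL2, SRSF4, HNRNPUL2-BSCL2 and HNRNPU, all lower in siDyskerin than in siGAR1. Over all genes 2.61% were higher and 2.78% lower in this comparison. The median log2 difference of the 34 genes was -0.15, with 4 above 0, and that of all genes was -0.004. At an unadjusted p under 0.05 there were 14 members of 34, and 25.5% of all genes. Among the mitochondrial mRNAs and nuclear RNAs listed as markers, only MT-CO1 passed in this comparison. The mitochondrial mRNA MT-CO1 had 18070 to 20180 normalised reads in siControl, 16054 to 17781 in siDyskerin and 20060 to 24189 in siGAR1, a difference of -0.37 (edgeR adjusted p = 0.0063) with the knockdowns apart. The differences of MT-ND4 and of the nuclear RNAs MALAT1 and NEAT1 were -0.26, -0.20 and -0.13 and did not pass (adjusted p = 0.13, 0.39 and 0.57). After GAR1 knockdown MT-CO1, MT-ND4, MALAT1 and NEAT1 had log2 fold changes of 0.21, 0.06, 0.21 and 0.25 against siControl (adjusted p = 0.10, 0.78, 0.37 and 0.25), and their part in the results of the SRSF and HNRNP genes was not tested.

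HNRNPUL2 (ENSG00000214753.4, chr11:62712630-62727457, minus strand), a protein related to hnRNP U, had 1391, 1380 and 1456 normalised reads in siControl, 1325, 1178 and 1196 in siDyskerin and 1840, 1594 and 1670 in siGAR1. The groups did not overlap, with siDyskerin lowest and siGAR1 highest. The log2 difference between the knockdowns was -0.46 (standard error 0.08, edgeR adjusted p = 0.0022), made up of -0.19 and 0.27 against siControl (adjusted p = 0.15 and 0.051). It did not pass with counts made from TPM (adjusted p = 0.032), nor without siDyskerin replicate 2 (0.015), siDyskerin replicate 3 (0.014) or siGAR1 replicate 1 (0.015). The readthrough gene HNRNPUL2-BSCL2 (ENSG00000234857.2, chr11:62690275-62727384) joins HNRNPUL2 to its neighbour BSCL2 and can share reads with HNRNPUL2. It had 1055, 996 and 1019 in siControl, 965, 858 and 921 in siDyskerin and 1297, 1128 and 1150 in siGAR1. Its groups were apart in the same order, and the difference was -0.38 (standard error 0.09, edgeR adjusted p = 0.0095). It is not independent of HNRNPUL2, and it passed in 0 of the 9 fits with a library left out (adjusted p up to 0.056).

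SRSF4 (ENSG00000116350.18, chr1:29147743-29181900, minus strand), an SR protein with a long arginine-serine domain, had 3844, 3795 and 3634 normalised reads in siControl, 3446, 3412 and 3608 in siDyskerin and 4451, 4150 and 4199 in siGAR1. The groups did not overlap and again siDyskerin was lowest and siGAR1 highest. The difference was -0.29 (standard error 0.06, edgeR adjusted p = 0.0085), and it passed in 1 of the 9 fits with a library left out, that without siControl replicate 1 (adjusted p up to 0.047 in the others). HNRNPU (ENSG00000153187.21, chr1:244840638-244864560, minus strand), the scaffold attachment factor of the nucleus, had 264192, 286951 and 281371 in siControl, 264549, 279777 and 267150 in siDyskerin and 324373, 326198 and 305775 in siGAR1. All siGAR1 libraries were above the others, which overlapped. The difference was -0.24 (standard error 0.05, adjusted p = 0.0097), and it passed in 2 of the 9 fits with a library left out, those without siControl replicate 1 and without siGAR1 replicate 3 (up to 0.063 in the others). With counts made from TPM or with only the 2 groups in the fit, SRSF4, HNRNPU and HNRNPUL2-BSCL2 did not pass. SRSF4 also did not pass without a filter on low counts or on the canonical transcript, nor HNRNPU with relative log expression factors or on the largest transcript.

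**Figure D3:**
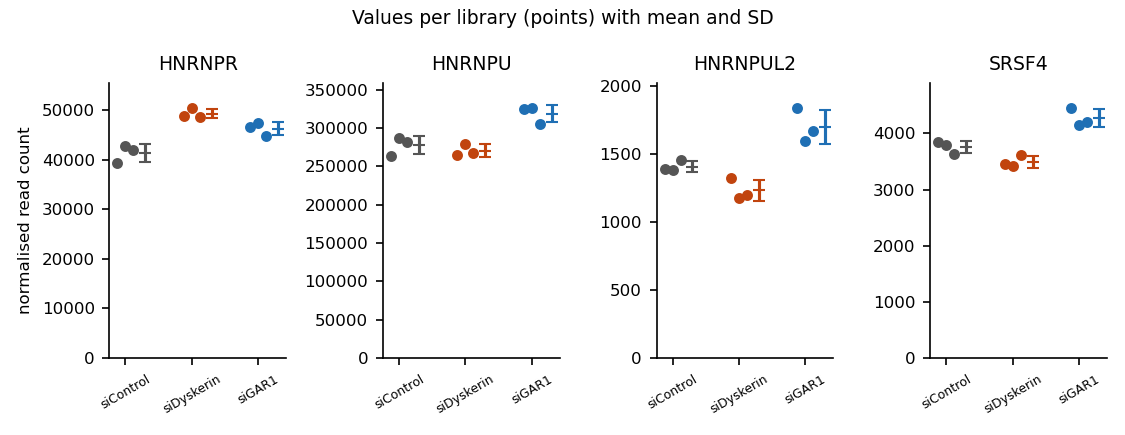
Normalised reads (y axis, from 0) of HNRNPR, HNRNPU, HNRNPUL2 and SRSF4 in the 3 groups (x axis), with a point per library and the mean ± SD. HNRNPR was highest in siDyskerin at 49273 ± 974 (n = 3), and the other genes were highest in siGAR1.

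The transcripts annotated to nonsense-mediated or non-stop decay held 1.73 to 56.5% of the transcript reads of the 24 genes with enough reads in this class and in coding transcripts. These percentages depend on how many transcripts of each class are annotated if, as it appears, a shared read counts in each. The highest in siControl were SRSF7 with 56.5% ± 0.19 (SD, n = 3), SRSF6 with 40.9% ± 0.47, SRSF1 with 37.5% ± 0.29 and HNRNPDL with 35.9% ± 0.11. The SD of the siControl libraries was at most 0.51 points. In siDyskerin and siGAR1 the shares of SRSF7 were 56.5% and 56.3%, and those of SRSF6 were 41.0% and 41.3%.

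The log2 ratio of decay to coding reads passed in 0 of 24 genes after dyskerin knockdown, 0 after GAR1 knockdown and 0 between the knockdowns (limma, adjusted p under 0.01). Over all 4857 genes tested, 0.0412%, 0% and 0.0412% passed, and at an unadjusted p under 0.05 there were 0, 1 and 2 members, beside 6.42%, 7.6% and 7.64% of all genes. The changes after dyskerin knockdown were -0.04 to 0.05, with a median of 0.004, and all 95% intervals lay between -0.21 and 0.27. After GAR1 knockdown they were -0.03 to 0.15, with intervals between -0.15 and 0.38, the widest for SRSF11, whose decay class held 2.67% of its reads. The smallest adjusted p was 0.32, for HNRNPK after GAR1 knockdown, at a change of 0.09. The sum over a class says little of the exons that set it apart: the median decay transcript had 0.88% of its bases outside coding exons, against 39.8% for retained-intron transcripts.

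**Figure D4:**
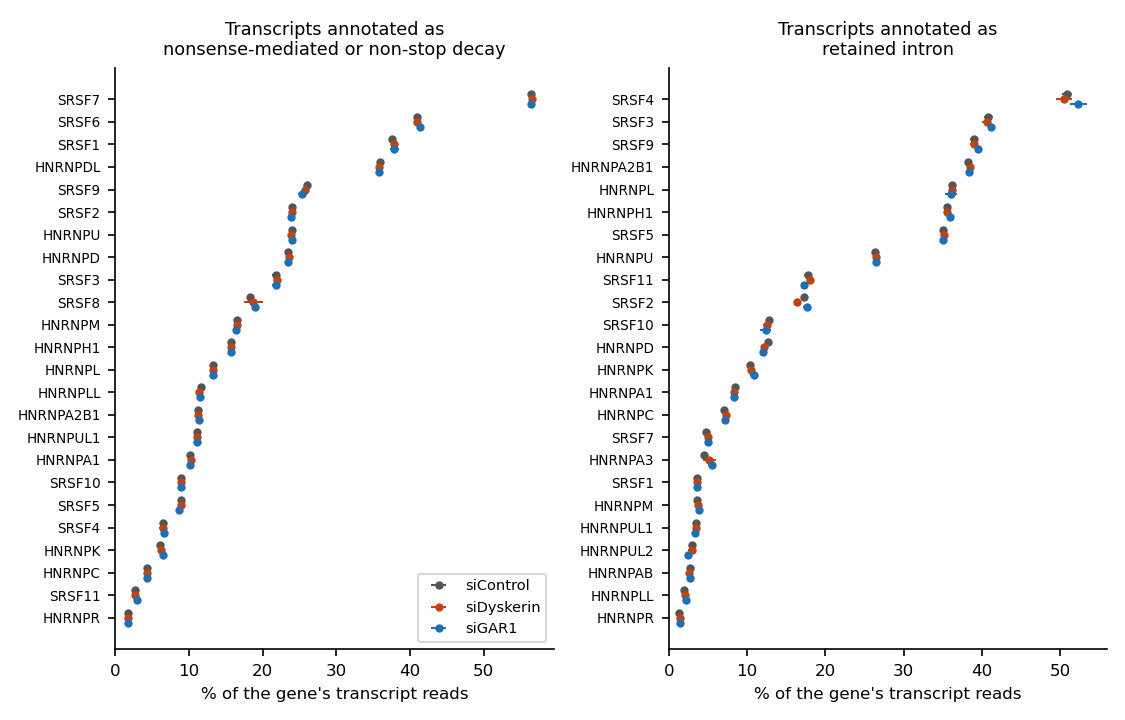
Share of the transcript reads of each gene (x axis, %) in transcripts annotated to decay (left) and to retained introns (right) for the 24 genes tested in each (y axis), as mean ± SD of 3 libraries in siControl (grey), siDyskerin (orange) and siGAR1 (blue). The 3 groups lie close together for most genes, from 56.5% decay reads in SRSF7 to 1.73% in HNRNPR, and the widest gap is in the retained-intron share of SRSF4, 50.5% in siDyskerin and 52.3% in siGAR1.

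Each decay transcript with its own stop-containing exon was therefore also set against the canonical transcript of its gene. In those with enough reads, 3.79% (HNRNPLL-201) to 52.1% (SRSF7-203) of the bases lie outside coding exons. The share is 15.7% in SRSF7-204 and 15.95% in SRSF6-202. A shared read can count on both sides of the ratio, so changes near 0 do not show that use of the exon was unchanged. Of the 16 exons, 14 belonged to transcripts with enough reads. Of these 14, 0 passed in any comparison, with 1, 2 and 2 at an unadjusted p under 0.05. Over all 75155 transcripts set against a canonical one, 0.00798%, 0.00399% and 0.0106% passed. An unadjusted p under 0.05 was reached by 6.53%, 8.68% and 8.07% of them. After dyskerin knockdown the log2 changes of the 14 decay transcripts were -0.05 to 0.07, with 7 above 0 and a median of -0.003. SRSF3-203, in which 41.6% of the bases lie outside coding exons, changed by -0.02 (95% interval -0.09 to 0.05), SRSF6-202 by 0.004 (-0.03 to 0.04), SRSF7-204 by 0.01 (-0.006 to 0.03) and SRSF4-205 by -0.01 (-0.19 to 0.17). After GAR1 knockdown the changes were -0.06 to 0.44. The highest was SRSF11-213, with 48.0, 60.2 and 50.8 normalised reads in siControl, 64.2, 50.8 and 57.4 in siDyskerin and 87.1, 91.8 and 76.4 in siGAR1. Against the canonical transcript it changed by 0.44 (95% interval 0.12 to 0.75, limma adjusted p = 0.44), and its low reads leave the interval wide.

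**Figure D5:**
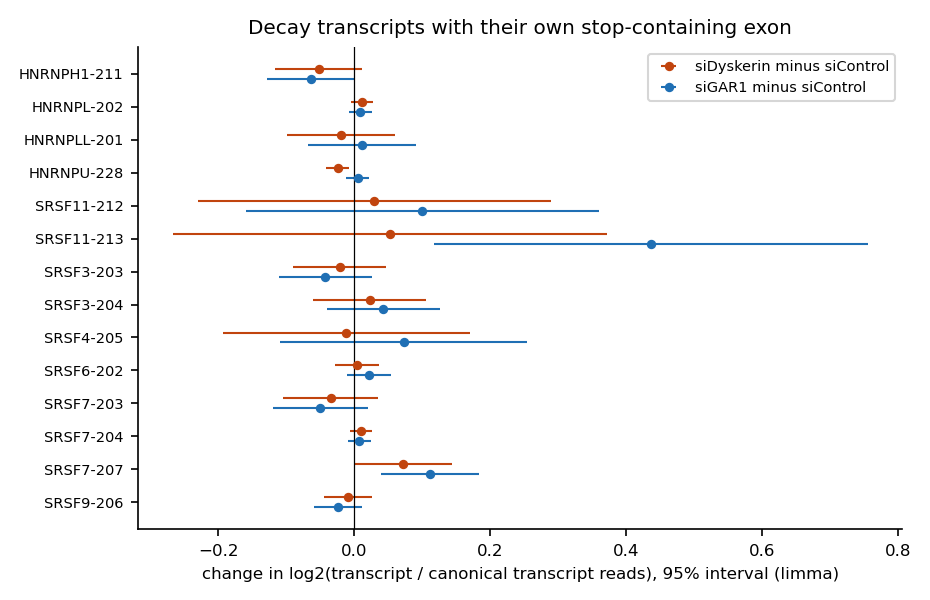
Change in log2 of the reads of a decay transcript over those of the canonical transcript (x axis), with 95% intervals from limma, for 14 decay transcripts with their own stop-containing exon (y axis) after dyskerin (orange) and GAR1 (blue) knockdown. Most lie near 0, and SRSF11-213 after GAR1 knockdown is the farthest at 0.44. Bases shared with coding exons can pull the ratios towards 0.

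Retained-intron transcripts held 1.27 to 50.9% of the reads of the 24 genes tested, most in SRSF4 (50.9% ± 0.63, SD, n = 3), SRSF3 (40.8% ± 0.58), SRSF9 (38.9% ± 0.45) and HNRNPA2B1 (38.2% ± 0.06). The log2 ratio to coding reads passed in 0 of 24 genes in each of the 3 comparisons, where 0.0634%, 0.0634% and 0.0317% of all 6306 genes passed, and 6, 7 and 6 members had an unadjusted p under 0.05, beside 6.85%, 11.1% and 9.9% of all genes. The ratio of HNRNPR had the smallest p after dyskerin knockdown, with a share of 1.29, 1.30 and 1.22% in siControl, 1.42, 1.42 and 1.61% in siDyskerin and 1.35, 1.42 and 1.36% in siGAR1. Its ratio changed by 0.23 (limma adjusted p = 0.19). SRSF2 had a share of 16.9, 17.5 and 17.2% in siControl, 15.96, 16.4 and 16.8% in siDyskerin and 18.2, 17.1 and 17.7% in siGAR1, and a ratio between the knockdowns of -0.13 (adjusted p = 0.082). The groups of SRSF2 were apart between the knockdowns, and neither gene passed. Of the retained-intron transcripts of SRSF2, SRSF2-209, SRSF2-210 and SRSF2-211 have no base outside coding exons, and SRSF2-206 has 5.99%. The ratio of SRSF2 therefore says little of intron retention.

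Transcript usage, which asks whether the transcripts of a gene move apart without using their class, passed in 0 of 29 genes in each comparison (edgeR diffSpliceDGE, adjusted p under 0.01), where 0.174%, 0.174% and 0.197% of 12666 genes passed. At an unadjusted p under 0.05 there were 1, 1 and 0 members, HNRNPA2B1 in both knockdowns, beside 1.41%, 1.67% and 1.59% of all genes. These shares of all genes are below what a p under 0.05 gives where nothing changes. The usage test was thus conservative in these data, and 0 of 29 says little about usage. Single transcripts set against the canonical one passed in 0 of 344 in each comparison, where 0.00798%, 0.00399% and 0.0106% of 75155 passed, and 39, 54 and 50 had an unadjusted p under 0.05, beside 6.53%, 8.68% and 8.07% of all. The smallest adjusted p was that of SRSF10-202, whose reads were 139% ± 2.65 of the canonical transcript in siControl, 137% ± 1.49 in siDyskerin and 125% ± 1.44 in siGAR1 (SD, n = 3; limma adjusted p = 0.039 between the knockdowns). SRSF10 encodes an SR protein that represses splicing when it is dephosphorylated.

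Tested transcript by transcript, 10 of 385 passed after dyskerin knockdown, 7 of HNRNPR that were higher and 3 of HNRNPAB that were lower, where 6.53% of all 111542 transcripts passed. The change was largest in HNRNPR-211, the retained-intron transcript shown above, with 502, 555 and 514 normalised reads in siControl, 688, 717 and 794 in siDyskerin and 626, 671 and 619 in siGAR1. The siDyskerin libraries were above all others, and the log2 fold change was 0.48 (standard error 0.08, edgeR adjusted p = 0.00012), which passed in all 9 fits with a library left out. The 6 coding transcripts of HNRNPR that passed rose by 0.24 to 0.28 and appear to share reads, to an extent that was not measured. Among them HNRNPR-203 had 5903, 6570 and 6440 normalised reads in siControl, 7439, 7742 and 7608 in siDyskerin and 6992, 7232 and 6954 in siGAR1, with the groups apart in the order seen for the gene (0.27, adjusted p = 0.0024). Against the canonical transcript HNRNPR-211 changed by 0.22 (95% interval 0.10 to 0.34, limma adjusted p = 0.36). The number of passing transcripts fell to 1 without siDyskerin replicate 2 or replicate 3, to 2, 5 and 4 without siControl replicates 1, 2 and 3, and was 21 without siGAR1 replicate 3.

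After GAR1 knockdown 10 of 385 transcripts passed, all higher, where 4.05% of all transcripts passed. They came from HNRNPA2B1, HNRNPH1, HNRNPK, HNRNPU, SRSF1, SRSF7 and SRSF11, 4 of them annotated as retained introns and 2 as decay. HNRNPA2B1-205, a retained-intron transcript of the gene for hnRNP A2 and B1, had 674, 828 and 863 normalised reads in siControl, 798, 930 and 893 in siDyskerin and 1088, 966 and 1188 in siGAR1. The siGAR1 libraries were above all others, and the log2 fold change was 0.46 (standard error 0.09, edgeR adjusted p = 0.0017). The call was lost without siGAR1 replicate 1 (adjusted p = 0.011).

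The other transcripts with the smallest adjusted p in this comparison were of several classes. HNRNPH1-246, a coding transcript of a reader of G-rich RNA, had 1476, 1492 and 1371 normalised reads in siControl, 1693, 1767 and 1684 in siDyskerin and 1806, 1696 and 1847 in siGAR1, and rose by 0.30 (edgeR adjusted p = 0.0049). Its siDyskerin libraries were also above siControl. The decay transcript SRSF11-213, with the values given above, rose by 0.69 (standard error 0.16, adjusted p = 0.0051). SRSF1-203, with no annotated coding sequence, had 1016, 1000 and 1000 in siControl, 1073, 1050 and 982 in siDyskerin and 1341, 1249 and 1160 in siGAR1, and rose by 0.32 (adjusted p = 0.0058). HNRNPU-211, a decay transcript, had 471, 554 and 474 in siControl, 501, 555 and 536 in siDyskerin and 720, 685 and 559 in siGAR1, and rose by 0.39 (adjusted p = 0.0065). In SRSF1-203 and HNRNPU-211 the siGAR1 libraries were above the others, and the siDyskerin and siControl libraries overlapped. SRSF7-211, a retained-intron transcript, had 860, 960 and 834 in siControl, 902, 1051 and 984 in siDyskerin and 1205, 1087 and 1061 in siGAR1, and rose by 0.34 (adjusted p = 0.0069). Each of these 5 passed in 4 or 5 of the 9 fits with a library left out. Of all 111542 transcripts tested, 51.2% had a log2 fold change above 0, with a median of 0.007. Of the 385 member transcripts, 318 were above 0, with a median of 0.15. The 60 decay and 92 retained-intron transcripts had medians of 0.17 and 0.13 beside 0.13 for the 197 coding ones. Transcripts of a gene can share reads, so the 385 are not separate observations. The number that passed was 0 without siGAR1 replicate 1, 5 without replicate 2 and 23 without replicate 3, and 6, 5 and 1 without siControl replicates 1, 2 and 3 and 2 without siDyskerin replicate 3.

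Between the knockdowns 25 transcripts passed, all lower in siDyskerin, where 5.48% of all transcripts passed. They were 20 of HNRNPU, 2 of SRSF2, and 1 each of SRSF4, HNRNPUL2 and HNRNPUL2-BSCL2. The 20 of HNRNPU appear to share reads, to an extent that was not measured. SRSF2-210, annotated as a retained intron with no base outside coding exons, had 612, 623 and 553 normalised reads in siControl, 508, 493 and 516 in siDyskerin and 702, 651 and 662 in siGAR1. The groups did not overlap, and the difference was -0.41 (standard error 0.08, edgeR adjusted p = 0.00082), which passed in all 9 fits with a library left out. SRSF4-207, a retained-intron transcript with 76.2% of its bases outside coding exons, had 1559, 1554 and 1562 in siControl, 1368, 1380 and 1544 in siDyskerin and 1898, 1723 and 1863 in siGAR1, a difference of -0.36 (adjusted p = 0.00097). Its siDyskerin libraries were below all siControl libraries, and those were below all siGAR1 libraries. The others with the smallest adjusted p were HNRNPUL2-201, HNRNPUL2-BSCL2-201, SRSF2-209 and HNRNPU-206. HNRNPUL2-201, the coding transcript, had 1328, 1343 and 1425 in siControl, 1277, 1139 and 1185 in siDyskerin and 1784, 1554 and 1655 in siGAR1, a difference of -0.47 (edgeR adjusted p = 5.7e-05) that passed in all 9 fits with a library left out. HNRNPUL2-BSCL2-201, annotated to decay and the only transcript of its gene, had a difference of -0.38 (adjusted p = 0.00088). SRSF2-209, a second retained-intron transcript with no base outside coding exons, had 1206, 1216 and 1119 in siControl, 1003, 959 and 995 in siDyskerin and 1307, 1227 and 1230 in siGAR1, a difference of -0.35 (adjusted p = 0.0013). HNRNPU-206 had 3932, 4328 and 4298 in siControl, 3850, 4223 and 4038 in siDyskerin and 5385, 4919 and 4719 in siGAR1, a difference of -0.31 (adjusted p = 0.0019). In HNRNPU-206 the siDyskerin and siControl libraries overlapped, while in the others the groups were apart. The count was 2 without siGAR1 replicate 1, 5, 10 and 5 without siDyskerin replicates 1, 2 and 3, and 43 without siControl replicate 1.

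Related genes were taken from lists of SR-like factors, their kinases and import receptors, of hnRNP-type proteins under other symbols, and of nonsense-mediated decay factors. Of the 15 SR-like factors and partners, 1 passed after dyskerin knockdown, SRPK1, a kinase of SR proteins, with 33132, 34656 and 33056 normalised reads in siControl, 27527, 28354 and 26716 in siDyskerin and 28821, 28634 and 24805 in siGAR1. All libraries of both knockdowns were below siControl, and the log2 fold change in siDyskerin was -0.29 (edgeR adjusted p = 0.0088). After GAR1 knockdown 0 passed, with 6 at an unadjusted p under 0.05, and 14 of 15 were above 0 with a median of 0.16. SRPK1 was the exception, at -0.29 (edgeR adjusted p = 0.012). In this comparison 1.63% of all 18444 genes tested passed as higher and 1.79% as lower. An unadjusted p under 0.05 was reached by 24% of all genes, and 51.3% were above 0. Of the 17 hnRNP-type proteins, PTBP3 and CIRBP were lower after dyskerin knockdown, by log2 fold changes of -0.41 and -0.38 (adjusted p = 0.0032 and 0.0048). Here 7 of 17 were above 0 after GAR1 knockdown, with a median of -0.009. PTBP3 is a repressor of the polypyrimidine tract-binding family and CIRBP a cold-inducible RNA-binding protein. Of the 14 decay factors 0 passed in each knockdown, and their medians were -0.02 and 0.05. In each knockdown 1 of them had an unadjusted p under 0.05, beside 26.1% of all genes in siDyskerin and 24% in siGAR1. Between the knockdowns 2, 1 and 0 genes of the lists passed. These were SRRM1 (-0.70, edgeR adjusted p = 0.00025), a splicing coactivator, the import receptor TNPO1 (-0.39, adjusted p = 0.0030) and CIRBP (-0.54, adjusted p = 0.00057), of which SRRM1 and TNPO1 were named after their values were seen.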

How the data were processed

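Per the labels, nuclear RNA was depleted of rRNA with RiboCop and made into CORALL libraries. The authors trimmed reads with Trim Galore 0.6.4, removed rRNA and tRNA reads with Bowtie2 2.4.1, and quantified transcripts with Salmon 1.2.0 against GENCODE 27 on GRCh38, depositing estimated counts and TPM per transcript. FastQC 0.11.9 and STAR 2.7.0e are also named in the submitters' notes.

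Of 200401 transcripts, 195887 matched GENCODE 44 by identifier. The other 4514, with 3.69 to 3.84% of the reads, were not used. Estimated counts were rounded and summed per gene. Genes and transcripts were tested with edgeR 4.0.16 (TMM, filterByExpr, robust quasi-likelihood F test, all 9 libraries in 1 fit) and transcript usage with diffSpliceDGE. Log2 ratios of decay or retained-intron to coding reads (pseudocount 0.5, at least 20 reads on average in each class), and of a transcript to the canonical one, were tested with limma 3.58.1. P-values were Benjamini-Hochberg adjusted over all features tested and passed under 0.01. The scripts were tested on simulated data. The common biological coefficient of variation was 0.0886, so that replicate spread, not counting error, limited precision for abundant genes. R 4.3.3, Python, pandas and matplotlib were used.

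The members and lists were chosen with earlier results of these data known. Values in every library are given for SRSF1, SRSF2, SRSF3, HNRNPA1, HNRNPC and HNRNPK, for members that passed (up to 8 per knockdown, 6 between knockdowns), and for up to 6 member transcripts with the smallest adjusted p under 0.01 per comparison, of which near-identical transcripts of HNRNPR are given by 1 example. In the related lists, up to 3 genes that passed per knockdown are named. Not every gene of these lists is reported here. HNRNPAB and HNRNPL were added after their values were seen. Alternatives were DESeq2 1.42.0, other normalization, filters and count estimates, 2 groups only, a replicate block, added pseudogene reads and leaving out each library. Fits on the largest or the canonical transcript and the ratios to the canonical transcript were added after the data were seen.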

Additional observations from a re-analysis of the deposited data

Results flagged for a closer look

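In 4 genes the effects of the 2 knockdowns against the shared siControl libraries differed by the direct test of siDyskerin minus siGAR1 (edgeR quasi-likelihood, adjusted p under 0.01). The log2 differences were -0.46 for HNRNPUL2 (adjusted p = 0.0022), -0.29 for SRSF4 (0.0085), -0.38 for HNRNPUL2-BSCL2 (0.0095) and -0.24 for HNRNPU (0.0097), with 3 of 3 siDyskerin libraries below 3 of 3 siGAR1 libraries in each. Groups of 3 libraries are too small for a search for outlying samples.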

How the results depend on the processing

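The 5 called genes and the 18 transcripts with the smallest adjusted p kept their direction under all alternatives run for them, while the counts were sensitive to single libraries. Genes that passed after dyskerin knockdown numbered 1, and 2 with DESeq2, with the replicate block or with the canonical transcript only (added after the data were seen), and 0 to 2 with a library left out. Between the knockdowns 4 passed, against 0 with lengthScaledTPM counts, 1 with the 2 groups only and 0 to 3 with a library left out. After GAR1 knockdown 0 passed under all alternatives, and the median fold change of the tested members stayed between 0.13 and 0.16. Transcripts that passed numbered 10 after dyskerin knockdown, against 16 with a minimum of 100 reads and 1 to 21 with a library left out, 10 after GAR1 knockdown, against 0 to 23, and 25 between the knockdowns, against 2 to 43. With the replicate number as a block, 21, 29 and 40 transcripts passed. The labels do not say whether the numbers pair the libraries, and the main fit did not use them. Deviations of same-numbered libraries correlated at -0.07 to 0.10, and those of differently numbered libraries at -0.10 to 0.06. Of 9 libraries, 7 correlated best with their own number. Decay, retained-intron, usage and canonical ratios gave 0 members in every alternative.

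Signs changed in 6 small fold changes of the genes shown in every library, none of which passed. After dyskerin knockdown SRSF1 was -0.0047 with lengthScaledTPM counts, -0.013 with the largest transcript only (added after the data were seen), and -0.0068 to 0.029 with a library left out, SRSF3 was -0.0080 to 0.043 and HNRNPC -0.066 to 0.0011. Between the knockdowns HNRNPC was -0.0090 to 0.050 with a library left out, HNRNPA1 was -0.19 to 0.048 and HNRNPK -0.21 to 0.0020, the highest value of HNRNPA1 and HNRNPK being that without siGAR1 replicate 3. With 3 libraries a group the 95% intervals given set the precision of each change, and the annotation limits what a class of transcripts can show.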
